A study of Mus musculus with 16 samples.

Results

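The genes described are 10 transcription factor genes of the AP-1 and immediate early response: Fos, Fosb, Fosl1, Fosl2, Jun, Junb, Jund, Atf3, Egr1 and Ier2. They were matched by symbol, and each was found in 1 row of the 5 count tables keyed by symbol, which hold 24421 genes, and of the table of normal organoids, which holds 51912 entries. RNA-seq of polyadenylated RNA covered 16 mouse (C57BL/6) organoid libraries in 6 groups named by their titles. Tumour organoids of genotype TMPL (Trp53-/-, Myc, sgCdkn2a and LMP1) form the groups LMP1 (2 libraries) and Lung-LMP1 (3 libraries). LMP1 is a viral protein that Epstein-Barr virus places in the cell membrane, where it signals without a ligand. Tumour organoids of genotype TMP (Trp53-/-, Myc and sgCdkn2a, without LMP1) form the groups Ctr (3 libraries) and Lung-Ctr (2 libraries). Untreated organoids of normal nasopharynx (Normal_nasopha, n = 3) and normal lung (Normal_lung, n = 3) complete the series. All 4 tumour groups thus share the Trp53 loss, Myc and the Cdkn2a guide. Per the labels, tumours grew in recipient mice after transplantation into the nasopharynx. The labels give no age and no promoter for Myc or LMP1, and do not tell whether replicates came from different mice or cultures. The p-values therefore speak of the spread between these libraries, which may be technical. In the sample descriptions all TMP libraries are primary and all TMPL libraries are metastases, whereas the design text has primary and metastasized organoids of each genotype. The groups are called by their titles, and genotype and that label cannot be told apart.

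AP-1 is a dimer of basic leucine zipper proteins. FOS proteins (Fos, Fosb, Fosl1, Fosl2) cannot pair with themselves and bind DNA with a JUN protein (Jun, Junb, Jund), which can also pair among themselves or with ATF proteins such as Atf3. Immediate early genes are transcribed within minutes of a growth factor, stress or a wound, without new protein synthesis, through MAP kinases and the factors SRF, ELK and CREB. In squamous and airway epithelia AP-1 is known for control of proliferation, wound repair and keratinocyte differentiation, and LMP1 is known to signal to NF-kB and to the JNK kinases that phosphorylate Jun.

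The 250 bases upstream of the RefSeq start are shown for 3 members, since the results turn on the contrast of a FOS gene that was far higher in tumour organoids (Fos), its dimer partner that was not called different (Jun) and a JUN gene that was lower in TMP organoids (Junb), and none of these bases lies in an exon annotated by GENCODE. The sequences come from RefSeq on GRCm38.p6 and read 5′ to 3′ on the gene's strand, with matches to any of 6 searched motifs in capitals. Fos lies on the plus strand (chr12:85473640-85473889), and Jun (chr4:95052223-95052472) and Junb (chr8:84978749-84978998) lie on the minus strand.
Fos: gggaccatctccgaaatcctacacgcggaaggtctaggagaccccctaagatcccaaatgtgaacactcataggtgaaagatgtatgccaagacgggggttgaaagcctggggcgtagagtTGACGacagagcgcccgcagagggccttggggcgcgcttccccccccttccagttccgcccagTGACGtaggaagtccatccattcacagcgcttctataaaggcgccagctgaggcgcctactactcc
Jun: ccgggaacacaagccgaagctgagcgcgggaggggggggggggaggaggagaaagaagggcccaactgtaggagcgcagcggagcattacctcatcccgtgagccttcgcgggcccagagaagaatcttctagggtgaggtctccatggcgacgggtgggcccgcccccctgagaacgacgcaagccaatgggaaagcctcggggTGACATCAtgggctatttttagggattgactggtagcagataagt
Junb: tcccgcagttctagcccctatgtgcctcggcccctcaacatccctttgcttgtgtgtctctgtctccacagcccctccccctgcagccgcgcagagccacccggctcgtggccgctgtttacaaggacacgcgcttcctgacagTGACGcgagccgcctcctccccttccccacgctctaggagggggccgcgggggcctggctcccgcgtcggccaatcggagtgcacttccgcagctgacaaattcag

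The motifs were searched on both strands of those 250 bases. In Fos, the TGACG core of a CREB or ATF site began 129 and 66 bases upstream of the start. In Jun, TGACATCA, known as a site for JUN and ATF dimers in the Jun promoter, lay 45 to 38 bases upstream. In Junb, TGACG began 106 bases upstream. Egr1, Fosl1 and Ier2 were not searched, which left windows of RefSeq for 7 of the members. Of the other 4, Fosb held TGACG 60 to 56 bases and the EGR site GCGNGGGCG 50 to 42 bases upstream. Fosl2 held the EGR site 79 to 71 bases upstream. Atf3 held CGTCA, which is TGACG on the other strand, 7 to 3 bases upstream, and Jund held no match. The 73 bases of the Fosb window nearest the start, with both matches, lie within the RefSeq span of the gene. All 250 bases of the Fosl2 window lie in exons annotated by GENCODE, as do 7 bases for Atf3 and 6 for Fosb. The Jund window ends at chr8:70697738, while GENCODE starts Jund at chr8:70698949. The AP-1 site TGACTCA, the full CREB site TGACGTCA and the CArG box, which SRF binds, were in none of the 7 windows of 250 bases. Bases further upstream were not searched, so these genes may hold such sites there. TGACG stood in 17.8% of all 32851 windows of that length, GCGNGGGCG in 4.7%, TGACATCA in 2.93%, TGACTCA in 4.46%, TGACGTCA in 1.55% and the CArG box in 1.47%. TGACG is part of TGACGTCA. TGACG and TGACATCA were added after the sequences had been read. A match describes letters, not binding.

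Tumour libraries held between 12535166 and 18067227 counts and the libraries of normal organoids between 20138142 and 21737184, so 3 counts correspond to 0.138 to 0.2393 CPM (the standard scaling of a count by its library total). Epithelial markers (7 genes) summed to between 887 and 5492 CPM in the tumour libraries, and alveolar markers (4 genes) to between 54150 and 61960 CPM in Normal_lung. Beside Ctr, a tumour table holds 3 further columns headed as normal lung, of 16573082 to 17631461 counts, called the normal comparator here. Over 12023 genes their log2 counts correlated at 0.93 to 0.943 with the same-numbered Normal_nasopha libraries, and at 0.679 to 0.713 with Normal_lung. The authors' deposited table compares those columns with Ctr under the name of normal nasopharynx. For 8 members, comparator and Normal_nasopha CPM differed by a factor of 1.01 to 1.34. Jund was 12.4 to 15.6 times as high in the comparator (387 against 28.8 CPM on average), and Fosl1 was 0.347 to 0.427 times as high (50.2 against 136.5 CPM). Of the Jund exon bases in GENCODE, 52.6% overlap the antisense gene Gm11175, and of those of Fosl1, 57.2% overlap Ccdc85b on the other strand. Whether reads were counted by strand is not given in the sources used here, so the absolute levels of Jund and Fosl1 are uncertain. Comparisons are made among the tables keyed by symbol, which list the same genes, or within the table of normal organoids. The columns of LMP1, Lung-LMP1 and Lung-Ctr come from other tables than those of the comparator.

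In tumour organoids the short-lived FOS genes Fos and Fosb stood far above the normal comparator, in all 4 tumour groups, while Fosl1 stood far below it and Fosl2 was not called. Among the JUN genes Junb and Jund were called lower in TMP organoids than in the comparator. These calls were lost when corrected for transcript length and GC content. Egr1 was called higher in all 4 groups, but only its Lung-LMP1 call held under every alternative run. Neither Jun nor Atf3 was called in any group. Calls are adjusted p-values under 0.05 of the edgeR quasi-likelihood test over all genes tested, and these 4 comparisons share the same 3 comparator columns. In bulk organoids, more RNA per cell and more cells of a type that expresses a gene cannot be told apart.

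**Figure D1:**
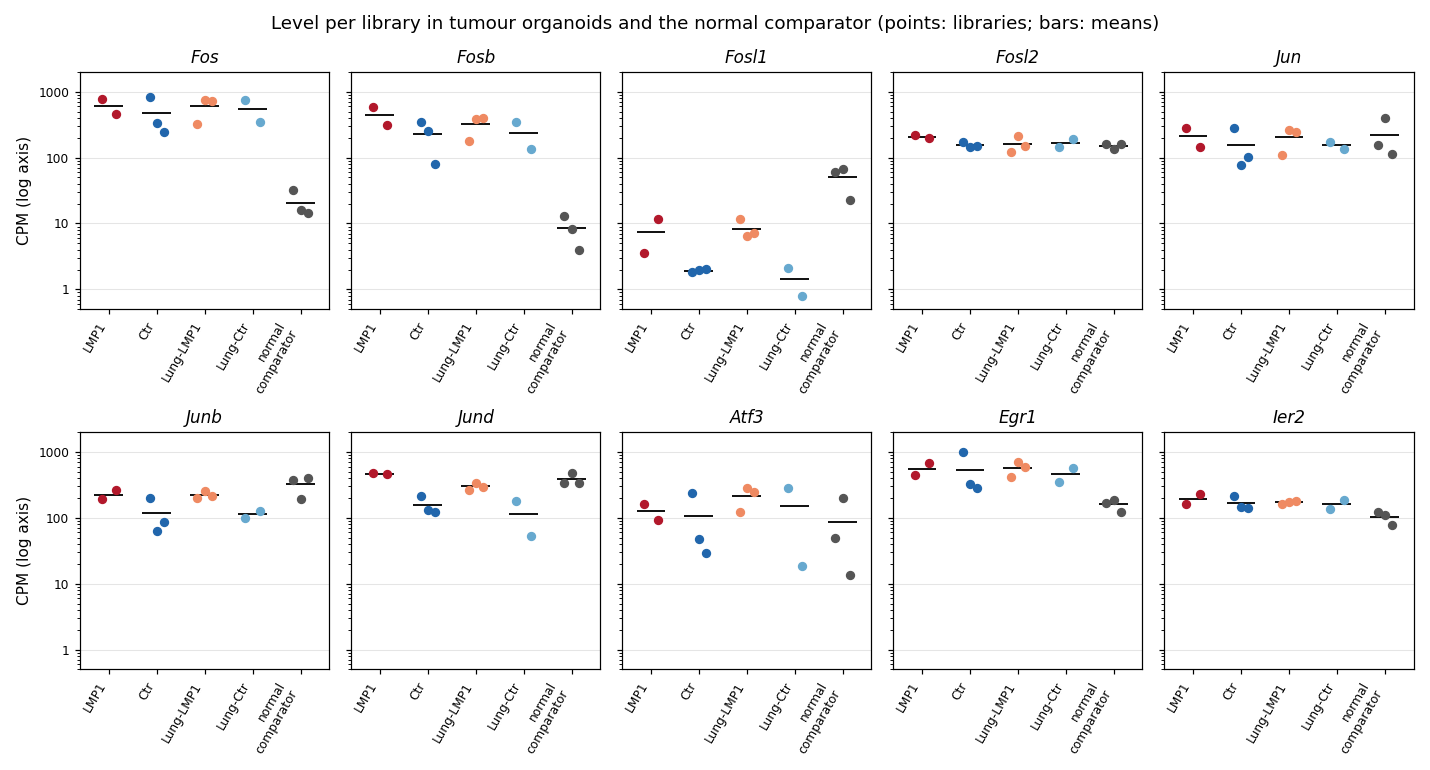
CPM per library (log axis, the same range in each panel) of the 10 genes in LMP1, Ctr, Lung-LMP1, Lung-Ctr and the normal comparator, with 1 point per library and a bar at the group mean. Fos and Fosb lie above the comparator in every tumour library, and Fosl1 lies below it in every tumour library.

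Fos (chr12:85473890-85477273) encodes the founding FOS protein. Its level was 773 and 459 CPM in LMP1, 842, 337 and 241 CPM in Ctr, 324, 755 and 725 CPM in Lung-LMP1, and 751 and 342 CPM in Lung-Ctr, against 32.0, 15.8 and 14.4 CPM in the comparator. Every tumour library was thus above every comparator library, while the 4 tumour groups overlapped. The log2 fold change was 4.84 ± 0.64 (SE) in LMP1 (adjusted p = 0.000973), 4.42 ± 0.60 in Ctr (0.000616), 4.89 ± 0.62 in Lung-LMP1 (0.00102) and 4.69 ± 0.63 in Lung-Ctr (0.000945), which is 21.4-fold to 29.7-fold. It was 3.73 in Ctr without Ctr replicate 1 and 4.01 in Lung-Ctr without Lung-Ctr replicate 1, both still called.

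Fosb (chr7:19302696-19310051) encodes a close relative of Fos, also with a short-lived transcript. Its level was 588 and 310.3 CPM in LMP1, 353, 249 and 80.4 CPM in Ctr, 180.3, 381 and 402 CPM in Lung-LMP1, and 345 and 135 CPM in Lung-Ctr, against 13.03, 8.39 and 3.97 CPM in the comparator. The lowest tumour library, Ctr replicate 3, was above the highest comparator library. The log2 fold change was 5.68 ± 0.73 in LMP1 (adjusted p = 0.0009), 4.65 ± 0.68 in Ctr (0.000841), 5.28 ± 0.70 in Lung-LMP1 (0.00119) and 4.80 ± 0.71 in Lung-Ctr (0.00143). Without Lung-Ctr replicate 1 the last was 3.96, still called.

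Fosl1 (chr19:5447547-5455946) encodes FRA1, a FOS protein without the strong activation domain of Fos. Its level was 3.54 and 11.6 CPM in LMP1, 1.84, 1.95 and 2.02 CPM in Ctr, 11.6, 6.49 and 7.10 CPM in Lung-LMP1, and 2.09 and 0.797 CPM in Lung-Ctr, against 60.5, 67.2 and 22.7 CPM in the comparator. No tumour library reached the lowest comparator library, and the TMPL libraries lay above the TMP libraries. The log2 fold change was -2.79 ± 0.65 in LMP1 (adjusted p = 0.0115), -4.77 ± 0.61 in Ctr (0.000412), -2.54 ± 0.54 in Lung-LMP1 (0.00716) and -5.14 ± 0.74 in Lung-Ctr (0.00124). Without LMP1 replicate 1 the LMP1 call was lost (-2.17, adjusted p = 0.109), and without replicate 2 the value was -3.86. Without Lung-Ctr replicate 1 the Lung-Ctr value was -5.99.

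Fosl2 (chr5:32135801-32157842), which encodes FRA2, had the flattest profile of the FOS genes. Its level was 221 and 196 CPM in LMP1, 174, 146 and 148 CPM in Ctr, 122, 214 and 148 CPM in Lung-LMP1, and 144 and 189 CPM in Lung-Ctr, against 163, 134 and 161 CPM in the comparator. The log2 fold changes lay between -0.05 ± 0.21 in Ctr and 0.40 ± 0.23 in LMP1, and none was called.

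Per kilobase of transcript, Fos had the highest level of the 10 genes in each tumour group (292 CPM per kb in LMP1, 225 in Ctr, 285 in Lung-LMP1 and 259 in Lung-Ctr, as means) and rank 9 of 10 in the comparator (9.83 CPM per kb). The 4 FOS genes together held 336 to 558 CPM per kb in LMP1, 159 to 520.1 in Ctr, 226 to 495 in Lung-LMP1 and 227 to 471 in Lung-Ctr, against 44.8 to 75.9 in the comparator. Fos and Fosb made up 85.1% to 95.1% of that sum over the 10 tumour libraries, against 14.6% to 24.5% in the comparator. Fosl1 made up 0.188% to 2.74% in the tumour libraries, against 27.3% to 54.5% in the comparator. The ranges of these shares did not overlap. The absolute level of Fosl1 is uncertain, so the exact shares depend on the table. In the Normal_nasopha columns Fosl1 made up 47.7% to 77.0%, and Fos and Fosb 7.22% to 13.2%. The summed level of the 3 JUN genes was 463.5 to 483 CPM per kb in LMP1, 138 to 326 in Ctr, 304 to 429.8 in Lung-LMP1 and 145 to 216 in Lung-Ctr, against 456.5 to 524 in the comparator. LMP1 overlapped the comparator and the other 3 groups lay below it. Jund, whose absolute level is uncertain, held 44.0% to 55.6% of the comparator's sum.

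**Figure D2:**
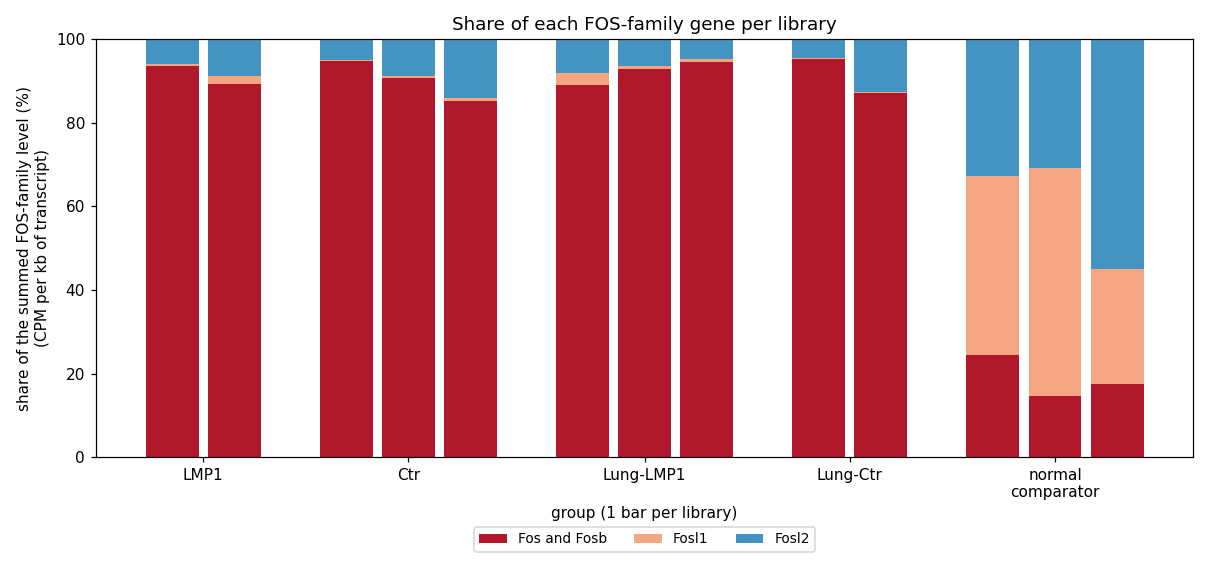
Share (%) of the summed FOS-family level, in CPM per kb of transcript, held by Fos and Fosb, Fosl1 and Fosl2, with 1 bar per library in each group. Fos and Fosb hold at least 85.1% in every tumour library and 14.6% to 24.5% in the comparator, where Fosl1 and Fosl2 hold the rest. The absolute level of Fosl1 is uncertain, and with it the exact shares.

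Jun (chr4:95049034-95052222) encodes the JUN protein that pairs with Fos. Its level was 283 and 147 CPM in LMP1, 278, 78.5 and 102 CPM in Ctr, 111, 266 and 246 CPM in Lung-LMP1, and 174 and 137 CPM in Lung-Ctr, against 157, 403 and 112 CPM in the comparator. All 5 groups overlapped, the log2 fold changes lay between -0.64 ± 0.57 in Ctr and -0.08 ± 0.57 in Lung-LMP1, and none was called.

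Junb (chr8:84974484-84978718) encodes a JUN protein that is a weaker activator than Jun at many sites. Its level was 191 and 260.2 CPM in LMP1, 199.9, 64.0 and 86.1 CPM in Ctr, 199, 257 and 211 CPM in Lung-LMP1, and 98.5 and 129 CPM in Lung-Ctr, against 372, 192 and 405 CPM in the comparator. Junb was lower than in the comparator in Ctr (log2 fold change -1.56 ± 0.40, adjusted p = 0.0127) and in Lung-Ctr (-1.54 ± 0.46, 0.0316). The TMPL groups were not called, with -0.57 ± 0.45 in LMP1 and -0.50 ± 0.39 in Lung-LMP1. Both calls were lost when each library was corrected for its trend with transcript length and GC content, with log2 fold changes of -0.63 in Ctr (adjusted p = 0.174) and -0.57 in Lung-Ctr (0.293). The Lung-Ctr call was also lost without Lung-Ctr replicate 1 (0.158) or 2 (0.0935) and without comparator replicate 1 (0.0545) or 3 (0.0832). The Ctr value was -2.17 without Ctr replicate 1, still called. Both Junb calls were lost with the compared groups alone, and the Lung-Ctr call also with the replicate block.

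Jund (chr8:70698949-70700616) encodes the JUN protein that is expressed more constantly and is the least inducible. Its level was 482 and 456 CPM in LMP1, 215, 130.2 and 122 CPM in Ctr, 266, 341 and 292 CPM in Lung-LMP1, and 178 and 52.4 CPM in Lung-Ctr, against 336, 486 and 339 CPM in the comparator. It was lower than in the comparator in Ctr (log2 fold change -1.40 ± 0.38, adjusted p = 0.0162) and in Lung-Ctr (-1.77 ± 0.45, 0.0155), where the ranges did not overlap. LMP1 (0.23 ± 0.42) and Lung-LMP1 (-0.33 ± 0.37) were not called. Corrected for length and GC content, the values were -0.22 in Ctr (adjusted p = 0.7) and -0.52 in Lung-Ctr (0.417). The Ctr call was also lost without Ctr replicate 2 (0.0577) or 3 (0.0585) or comparator replicate 2 (0.0509), and the Lung-Ctr call without Lung-Ctr replicate 2 (-1.14, 0.0586). Without Lung-Ctr replicate 1 the Lung-Ctr value was -2.92. The Lung-Ctr call was also lost with the compared groups alone.

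Egr1 encodes a zinc finger factor that is a standard marker of ERK signalling and is no AP-1 subunit. Its level was 441 and 668 CPM in LMP1, 998, 323 and 285 CPM in Ctr, 424, 702 and 601 CPM in Lung-LMP1, and 348 and 566 CPM in Lung-Ctr, against 171, 188 and 122 CPM in the comparator. All tumour libraries were above all comparator libraries. The log2 fold change was 1.74 ± 0.48 in LMP1 (adjusted p = 0.0228), 1.65 ± 0.44 in Ctr (0.0156), 1.88 ± 0.45 in Lung-LMP1 (0.0111) and 1.48 ± 0.48 in Lung-Ctr (0.041). With all libraries kept, the Lung-Ctr call was lost with no filter, the replicate block or the compared groups alone. The LMP1 call was lost with the replicate block, and the Ctr call with the compared groups alone. The Lung-LMP1 call held under each of the 12 alternatives run for it. The other calls were lost in edgeR without LMP1 replicate 1 (adjusted p = 0.0711) or 2 (0.15) and without comparator replicate 3 (0.0796) in LMP1, without Ctr replicate 1 (log2 fold change 0.855, 0.0509) or comparator replicate 3 (0.0587) in Ctr, and without any 1 of the 5 libraries (0.06 to 0.212) in Lung-Ctr.

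Ier2 (chr8:84661331-84662852) encodes a small nuclear immediate early protein. Its level was 163 and 227 CPM in LMP1, 213, 147 and 139 CPM in Ctr, 164, 171 and 181 CPM in Lung-LMP1, and 138 and 184 CPM in Lung-Ctr, against 123.3, 112 and 78.8 CPM in the comparator. Each tumour group lay wholly above the comparator. Ier2 was called higher in LMP1 (log2 fold change 0.85 ± 0.25, adjusted p = 0.0285) and in Lung-LMP1 (0.76 ± 0.23, 0.0274), and not in Ctr (0.58 ± 0.23, 0.065) or Lung-Ctr (0.59 ± 0.25, 0.0954). In edgeR the LMP1 call was lost without LMP1 replicate 1 (adjusted p = 0.0693) or 2 (0.231) or comparator replicate 2 (0.0621) or 3 (0.0946), and the Lung-LMP1 call without Lung-LMP1 replicate 1 (0.068), 2 (0.0549) or 3 (0.0807) or comparator replicate 2 (0.052) or 3 (0.0942). With all libraries kept, the LMP1 call was also lost with no filter, the replicate block or the compared groups alone. Corrected for length and GC content, Ier2 was called in Ctr (1.52, 0.00211) and Lung-Ctr (1.52, 0.00434).

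Atf3 (chr1:191170296-191218039) encodes a stress-induced ATF protein that can repress as a homodimer. Its level was 164 and 91.8 CPM in LMP1, 242, 47.1 and 28.9 CPM in Ctr, 121, 284 and 244 CPM in Lung-LMP1, and 286 and 18.8 CPM in Lung-Ctr, against 50.3, 197 and 13.7 CPM in the comparator. Libraries of the same group differed by up to 15.2-fold, in Lung-Ctr, and none of the comparisons with the comparator called it, with log2 fold changes between 0.18 ± 1.08 in Ctr and 1.35 ± 1.10 in Lung-LMP1.

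**Figure D3:**
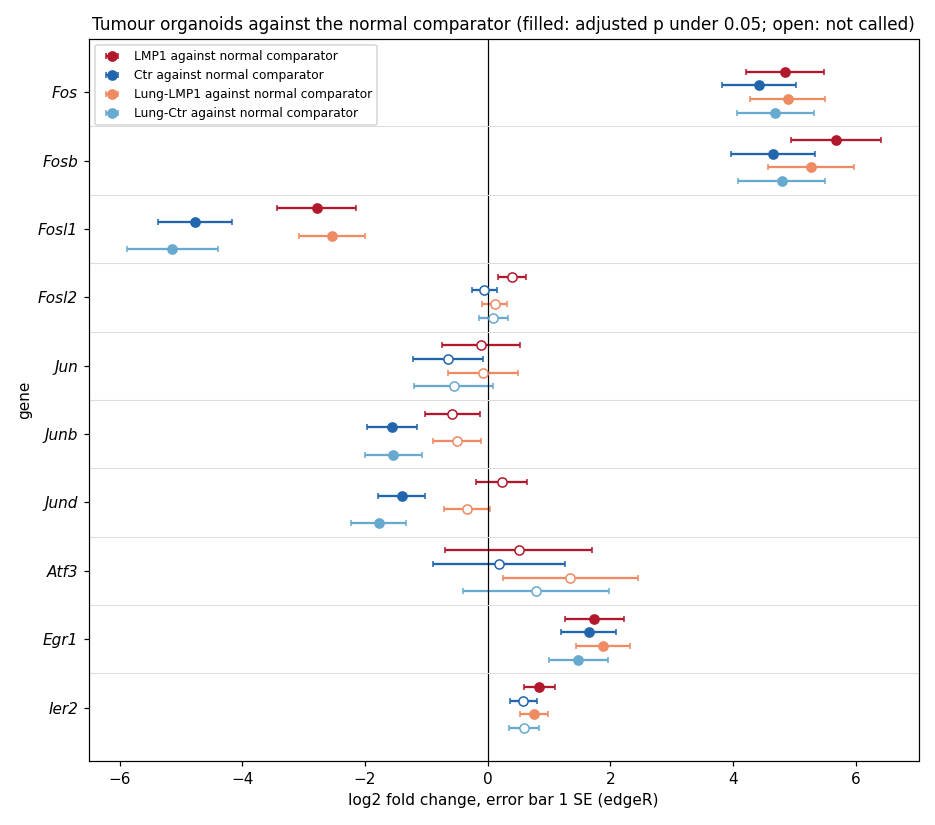
Log2 fold change (x axis, error bar 1 SE) of each of the 10 genes in LMP1, Ctr, Lung-LMP1 and Lung-Ctr against the normal comparator, with filled points for adjusted p under 0.05. Fos and Fosb lie between 4.42 and 5.68, Fosl1 lies below -2.5 in all 4 groups, and Fosl2, Jun and Atf3 have open points only.

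In LMP1 4 members were called higher than the comparator and 1 lower, where 28.2% of all genes were called. In Ctr 3 were higher and 3 lower against a background of 35.1%, in Lung-LMP1 4 were higher and 1 lower against 32.0%, and in Lung-Ctr 3 were higher and 3 lower against 27.4%. The median log2 fold change of the members was 0.45 in LMP1, 0.07 in Ctr, 0.44 in Lung-LMP1 and 0.34 in Lung-Ctr. Over all genes it was -0.02 in LMP1, -0.07 in Ctr, -0.08 in Lung-LMP1 and -0.04 in Lung-Ctr. The 5 or 6 of 10 members called in each comparison stand above the shares of all genes called. The members were chosen with earlier results of these data known, and the 4 comparisons share the comparator columns. The excess is therefore a description and was not tested. Immune markers (5 genes) summed to between 7.31 and 41.1 CPM in the tumour libraries, against 63.0 to 298 CPM in the comparator. Alveolar markers summed to between 0.718 and 2.92 CPM, against 44.1 to 190.3 CPM in the comparator, and 4 of 4 were called lower in all 4 groups. Epithelial markers summed to between 887 and 5492 CPM, against 5550 to 17860 CPM in the comparator, with 6 of 7 called lower in LMP1, 2 in Ctr, 0 in Lung-LMP1 and 1 in Lung-Ctr. Fibroblast markers (7 genes) summed to 40.8 and 83.4 CPM in LMP1, against 4.71 to 13.8 CPM in the comparator. In Ctr they summed to 1.18, 109.8 and 0.278 CPM in replicates 1, 2 and 3. They summed to at most 1.52 CPM in Lung-LMP1 and 0.465 CPM in Lung-Ctr. Of 5 tested, 1 was called higher in LMP1 and 1 lower in each other tumour group. The part of these markers in the results was not tested.

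Other genes of the same pathway were called in both directions against the comparator. The counts of this list and those that follow stand beside 28.2% of all genes called in LMP1, 35.1% in Ctr, 32.0% in Lung-LMP1 and 27.4% in Lung-Ctr, and many are at or below these shares. Of 16 tested bZIP factors outside the members, 3 were called higher and 4 lower in Ctr and in Lung-Ctr, 3 higher and 4 lower in Lung-LMP1, and 2 higher and 3 lower in LMP1. Atf2, a JUN partner, rose by 1.33 ± 0.17 on the log2 scale in Ctr and by 1.06 ± 0.18 in LMP1. Mafg, a small MAF protein, was lower in all 4 groups, by a log2 fold change of -1.72 ± 0.24 in Ctr and -1.08 ± 0.27 in LMP1. Of 24 other immediate early genes, 6 were higher and 2 lower in LMP1, 1 higher and 4 lower in Ctr, and 3 higher and 4 lower in Lung-LMP1 and in Lung-Ctr. Egr2, the relative of Egr1, was higher in all 4, with 4.56 ± 0.93 in LMP1 and 3.52 ± 0.87 in Ctr. Ier5 was lower in Ctr, with -2.34 ± 0.28.

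Upstream of these genes, 18 MAP kinases and SRF partners had 1 called higher and 1 lower in LMP1, 3 and 4 in Ctr, 3 and 1 in Lung-LMP1, and 2 and 1 in Lung-Ctr. Mapk9, which encodes the kinase JNK2, was lower in all 4 groups, with a log2 fold change of -0.95 ± 0.28 in Ctr. Elk4, an SRF partner, was higher in all 4, with 0.66 ± 0.19 in Ctr and 1.21 ± 0.21 in Lung-Ctr. A list of 11 ERK feedback genes also held the transcription factor genes Etv4 and Etv5, so not all 11 restrain ERK signalling. Among them, Spred1 was higher in all 4 groups, with 1.93 ± 0.24 in Ctr. Phlda1 was lower in LMP1 (-1.60 ± 0.33), Ctr (-1.21 ± 0.28) and Lung-Ctr (-1.08 ± 0.32). The counts for that list were 2 higher and 2 lower in LMP1, 1 and 1 in Ctr, 2 and 1 in Lung-LMP1, and 2 and 1 in Lung-Ctr.

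Genes known as AP-1 targets were mostly lower where called. Of 21 such genes, 0 were called higher and 13 lower in LMP1, 2 higher and 9 lower in Ctr, 1 higher and 8 lower in Lung-LMP1, and 2 higher and 8 lower in Lung-Ctr. Their median log2 fold change was -2.47 in LMP1, -1.85 in Ctr, -1.09 in Lung-LMP1 and -1.91 in Lung-Ctr. Plaur, the urokinase receptor, was lower in Ctr (-3.16 ± 0.62), and so was the cornified envelope gene Sprr1a (-4.00 ± 0.85). Cd44, a hyaluronan receptor, was higher in Ctr (1.78 ± 0.36), Lung-Ctr (2.13 ± 0.39) and Lung-LMP1 (2.01 ± 0.36). Of 10 heat shock genes, 1 was higher and 4 lower in LMP1, 2 and 5 in Ctr, 1 and 2 in Lung-LMP1, and 0 and 3 in Lung-Ctr. The inducible chaperone Hspa1a was lower in all 4, with -3.39 ± 0.70 in Ctr. Its level was 125 ± 47.7 CPM in Ctr and 1255 ± 1374 CPM in the comparator (SD, n = 3 each). The comparator libraries thus differed widely, and their heat shock sum was highest in replicate 2, at 17790 CPM beside 7083 and 3757 CPM.

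LMP1 genotype was tested within the 10 tumour libraries. Fosl1 and Jund were higher in TMPL than in TMP organoids, and the other 8 genes were not called, although all 10 log2 fold changes were above 0. With the Lung prefix as a term, 2 of the members were called higher and none lower, where 12.4% of all genes were called. The median log2 fold change was 0.44 for the members and -0.05 for all genes. LMP1 against Ctr called 1 member, Jund, against a background of 16.4%, and Lung-LMP1 against Lung-Ctr called 0 of the members and 0% of all genes. In that last comparison 2295 genes and 3 members (Fosl1, Junb and Jund) had an unadjusted p under 0.05 in edgeR, and DESeq2 called 2 members, Fosl1 and Jund.

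Fosl1 averaged 8.06 ± 3.48 CPM in TMPL libraries and 1.74 ± 0.534 CPM in TMP libraries (SD, n = 5 each), and the ranges did not overlap. The log2 fold change was 2.26 ± 0.44 (adjusted p = 0.0139), with 1.94 ± 0.58 for LMP1 against Ctr (0.0529) and 2.59 ± 0.66 for Lung-LMP1 against Lung-Ctr (0.136). The value for LMP1 against Ctr was 0.846 without LMP1 replicate 2 and 2.56 without LMP1 replicate 1, and that for Lung-LMP1 against Lung-Ctr was 3.42 without Lung-Ctr replicate 1. The counts behind it were few, at 64 and 171 in LMP1 and 30 and 12 in Lung-Ctr. Without LMP1 replicate 2 the call was lost (log2 fold change 1.98, adjusted p = 0.0961). In the authors' deposited table Fosl1 has a log2 fold change of 1.94 with adjusted p 0.0167 for LMP1 against Ctr, and 2.59 with 0.00307 for Lung-LMP1 against Lung-Ctr.

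Jund averaged 367 ± 97.2 CPM in TMPL libraries and 139.5 ± 61.5 CPM in TMP libraries (SD, n = 5 each), again with no overlap. The log2 fold change was 1.501 ± 0.30 (adjusted p = 0.016), with 1.57 ± 0.43 for LMP1 against Ctr (0.0407) and 1.43 ± 0.46 for Lung-LMP1 against Lung-Ctr (0.184). This last value was 2.55 without Lung-Ctr replicate 1 and 0.806 without Lung-Ctr replicate 2. The authors' deposited table gives 1.57 with adjusted p 6.73e-06 for LMP1 against Ctr and 1.41 with 0.0983 for the pair with the Lung prefix. Corrected for length and GC content it was 0.92 (adjusted p = 0.115) for TMPL against TMP and 0.74 (0.32) for LMP1 against Ctr, and leaving out LMP1 replicate 1 or 2 ended the TMPL call (0.0581 and 0.0636). The LMP1 against Ctr call was also lost without LMP1 replicate 1 (0.195) or 2 (0.172) and without Ctr replicate 2 (0.0909) or 3 (0.101).

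Junb averaged 223.5 ± 33.0 CPM in TMPL libraries and 115 ± 52.7 CPM in TMP libraries (SD, n = 5 each), and overlapped only through Ctr replicate 1 at 199.9 CPM. Its log2 fold change of 0.98 ± 0.29 was not called (adjusted p = 0.0555), and was called by DESeq2 (0.00886) and without Ctr replicate 1 (1.26, 0.00954). The authors' deposited table gives 0.93 with adjusted p 0.159 for LMP1 against Ctr and 1.01 with 0.00399 for Lung-LMP1 against Lung-Ctr. Fos (0.27 ± 0.40), Fosb (0.71 ± 0.43), Jun (0.47 ± 0.39), Atf3 (0.40 ± 0.76), Fosl2 (0.20 ± 0.17), Egr1 (0.21 ± 0.37) and Ier2 (0.18 ± 0.16) had adjusted p-values up to 0.76. Epithelial markers summed to 887 and 1335 CPM in LMP1 against 2467 to 4652 CPM in Ctr, but to 4974 to 5303 CPM in Lung-LMP1 against 4578 to 5492 CPM in Lung-Ctr. Fibroblast markers summed to 83.4 and 40.8 CPM in LMP1, and to 1.18, 109.8 and 0.278 CPM in Ctr replicates 1, 2 and 3. The part of both marker lists in these results was not tested.

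**Figure D4:**
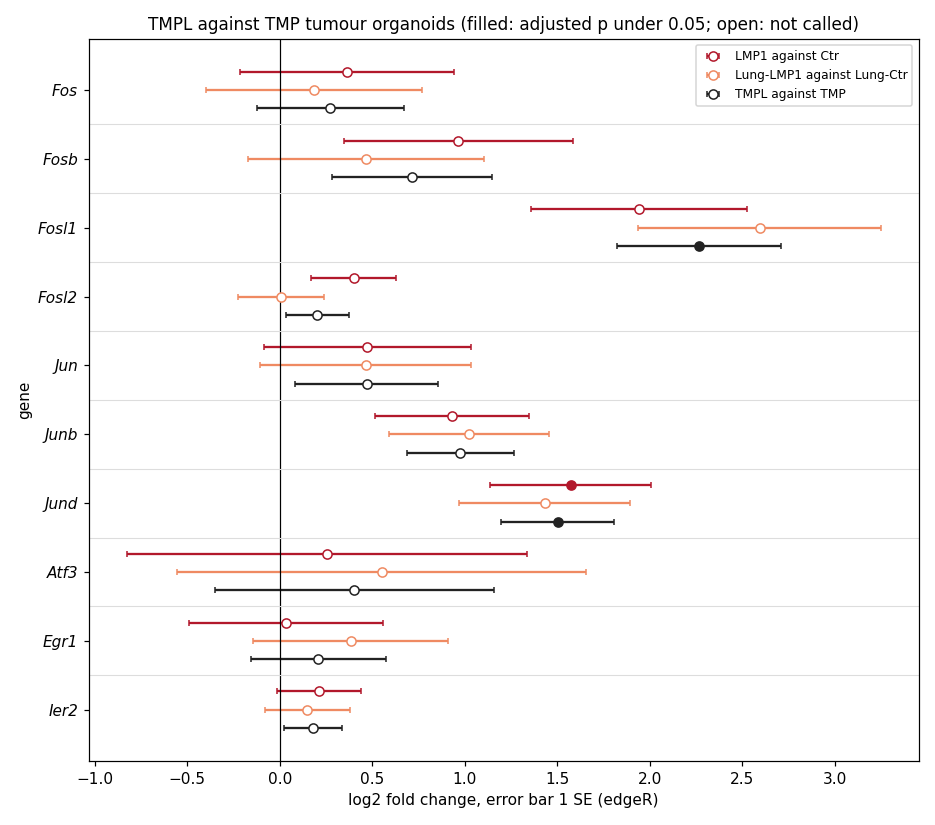
Log2 fold change (x axis, error bar 1 SE) of the 10 genes in 3 genotype comparisons (LMP1 against Ctr, the pair of groups with the Lung prefix, and TMPL against TMP with that prefix as a term), with filled points for adjusted p under 0.05. Fosl1 (2.26) and Jund (1.501) are filled for TMPL against TMP, Jund (1.57) is filled for LMP1 against Ctr, and all other points are open.

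The lists tested for TMPL against TMP had shares of called genes near the 12.4% of all genes. Atf4 and Atf5, bZIP factors of the amino acid and unfolded protein response, were the 2 of 16 other bZIP factors called higher in TMPL than in TMP (log2 fold change 1.34 ± 0.13 and 1.27 ± 0.22), and none was lower. Of 24 other immediate early genes, 3 were higher (Ier5l at 1.78 ± 0.30, Ier5 at 1.09 ± 0.19 and Nr4a2 at 0.73 ± 0.17) and 1 was lower (Gadd45b at -0.78 ± 0.20). Of 18 upstream genes, 3 were higher, namely Srf at 0.87 ± 0.13, Map2k2 at 0.67 ± 0.17 and Elk1 at 0.88 ± 0.24. Among 11 ERK feedback genes, Spred1 was lower (-0.69 ± 0.14). AP-1 target genes had 1 of 20 higher, Hmga1 (2.13 ± 0.38), and 1 lower, Plau (-2.13 ± 0.51), and 1 of 10 heat shock genes, Hspb1, was lower (-1.69 ± 0.46).

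The Lung prefix of the titles was tested within each genotype. Lung-LMP1 against LMP1 called 0 members (10.1% of all genes) and Lung-Ctr against Ctr called 0 members (0% of all genes), in edgeR and in DESeq2, and none of the members had an unadjusted p under 0.05 in either. Of the 13460 genes tested, 3689 had one in Lung-LMP1 against LMP1 and 717 in Lung-Ctr against Ctr, in edgeR. Jund was 266, 341 and 292 CPM in Lung-LMP1, below both LMP1 libraries (482 and 456 CPM), with a log2 fold change of -0.52 ± 0.44 (adjusted p = 0.494). The authors' deposited table gives -0.52 with adjusted p 0.0136 for it, and a fit of those 2 groups alone gives 0.046. The other 9 members overlapped between Lung-LMP1 and LMP1, and all 10 overlapped between Lung-Ctr and Ctr. The share of all genes whose ranges overlap is not given here, so these counts only describe the members. The interaction, which asks whether the genotype difference depends on the Lung prefix, called 0 members in edgeR and in DESeq2, and 0.892% of all genes in edgeR. At an unadjusted p under 0.05 in edgeR it had 0 members and 2105 of the 13460 genes.

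Of the AP-1 target genes, 8 of 20 tested were called higher in Lung-LMP1 than in LMP1 and 2 lower, beside 10.1% of all genes called, with a median log2 fold change of 1.97. Epithelial markers moved with them, with 5 of 7 higher and sums of 4974 to 5303 CPM in Lung-LMP1 against 887 and 1335 CPM in LMP1. Fibroblast markers summed to between 0.406 and 1.52 CPM in Lung-LMP1, with Col1a2, Col3a1 and Lum at 0, against 40.8 and 83.4 CPM in LMP1. The part of these markers was not tested. Plau, the urokinase gene, averaged 72.9 ± 20.9 CPM in Lung-LMP1 (n = 3) and 14.2 ± 3.73 CPM in LMP1 (SD, n = 2), with a log2 fold change of 2.50 ± 0.35. Timp1, a protease inhibitor, was lower (-2.94 ± 0.66). LMP1 against Ctr, which shares the LMP1 libraries, had 2 higher and 7 lower of 20 and a median of -1.24, with Plau at -3.34 ± 0.37.

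Within each tumour group the members varied together in places. Ctr replicate 1 was the highest of the 3 Ctr libraries for 9 of 10 members, all but Fosl1, and the spread within Ctr reached 3.49-fold for Fos, 4.39-fold for Fosb and 8.35-fold for Atf3, while Fosl2 (1.19-fold) and Ier2 (1.53-fold) were steadier. Ctr replicate 1 also had the highest sum of the 24 other immediate early genes in Ctr, at 3123 CPM beside 1643 and 1804 CPM. Its heat shock sum was the lowest of the 3, at 6319 CPM beside 7151 and 9678 CPM. In the pairs of libraries of LMP1 and of Lung-Ctr, replicate 1 was the higher for Fos, Fosb, Jun, Jund and Atf3, and replicate 2 was the higher for Junb, Egr1 and Ier2. In a pair, replicate 1 or replicate 2 must be the higher. The share of all genes highest in each library is not given here, so these counts only describe the members.

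The genes whose log2 CPM followed each member most closely were sought by Pearson's r over the 10 tumour libraries, among 9225 genes other than the members. The closest to Fos were Akr1a1 (r = 0.935) and Actr8 (0.932), and the closest to Fosb were Insig1 (0.932) and Cdc42bpa (0.928). Fosl1 was followed by Psmd3 (0.963) and Prpf38b (0.949), and Fosl2 by Iqsec2 (0.907) and Hdac5 (0.902). For Jun they were Rsph3a (0.918) and Xpa (0.909), for Junb Fastk (0.97) and Cic (0.967), and for Jund Bin3 (0.977) and Emc10 (0.965). For Atf3 they were Syngr1 (0.945) and Stx18 (0.923), for Egr1 Ppp1r18 (0.912) and Snrnp27 (0.905), and for Ier2 Mien1 (0.952) and Zmynd8 (0.884). These values describe the 10 libraries, which share their depth and group structure. They are the highest among 9225 candidates for each member, so high values can arise from that choice alone. They were not tested and do not show shared regulation.

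In normal organoids the members were mostly higher in nasopharynx than in lung. Normal_nasopha against Normal_lung called 8 of 10 members higher and none lower, against 31.1% of all genes called, with a median log2 fold change of 1.81 beside 0.13 over all genes. Fosl2 (-0.31 ± 0.21) and Jund (-0.51 ± 0.27) were not called. Immune markers summed to 56.7 to 273 CPM in Normal_nasopha against 1667 to 2893 CPM in Normal_lung, fibroblast markers to 4.23 to 13.2 against 80.8 to 469.5 CPM and alveolar markers to 39.4 to 172 against 54150 to 61960 CPM, and their part in these results was not tested.

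**Figure D5:**
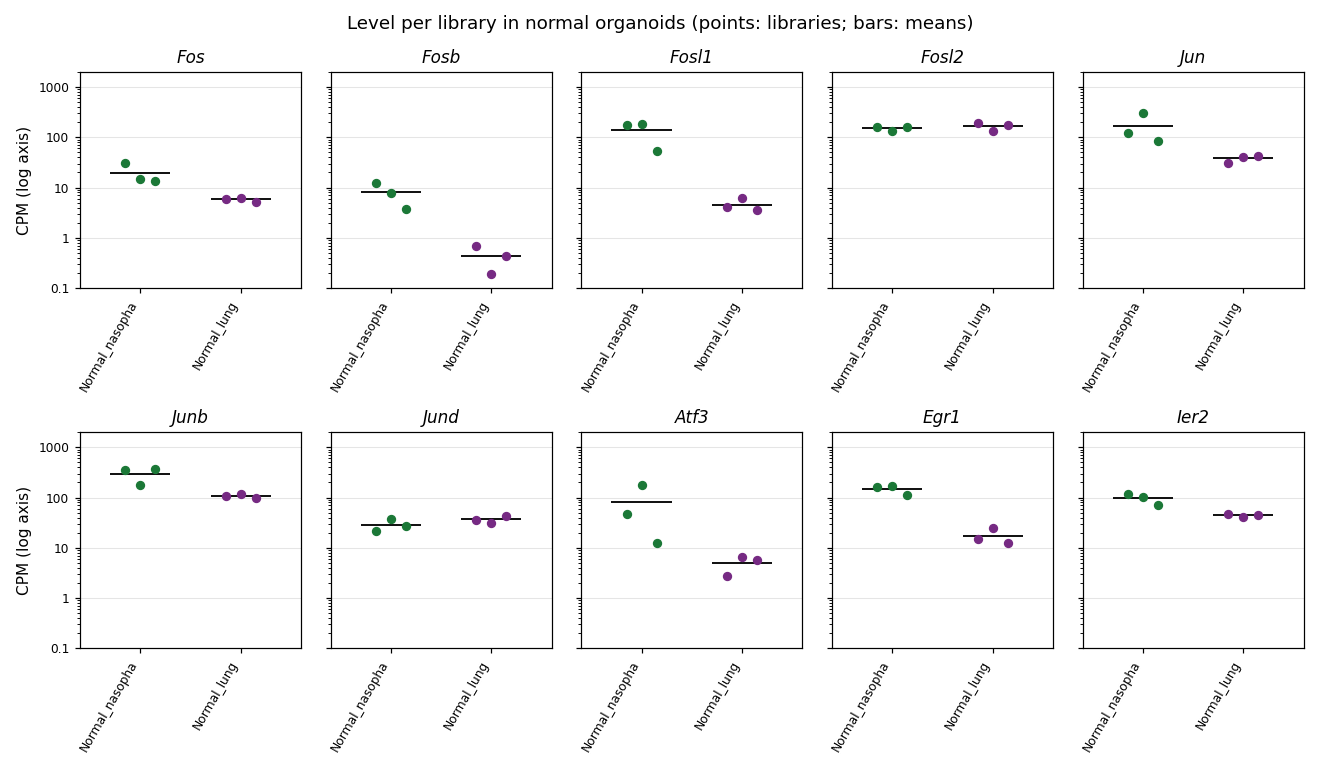
CPM per library (log axis, the same range in each panel) of the 10 genes in Normal_nasopha and Normal_lung, with 1 point per library and a bar at the group mean. All genes but Fosl2 and Jund have each Normal_nasopha library above each Normal_lung library. The share of all genes that separate in this way is not given here.

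Fosl1 showed the largest difference of the members, with 174, 182 and 53.3 CPM in Normal_nasopha against 4.02, 6.22 and 3.55 CPM in Normal_lung (log2 fold change 4.75 ± 0.54, adjusted p = 0.00126). Fosb followed, with 12.5, 7.96 and 3.69 CPM in Normal_nasopha against 0.695, 0.19 and 0.437 CPM in Normal_lung, where the counts were only 14, 4 and 9 (4.01 ± 0.69, 0.00563). Atf3 had 46.6, 181 and 12.5 CPM in Normal_nasopha against 2.73, 6.51 and 5.68 CPM in Normal_lung (3.88 ± 0.96, 0.0225). The tissues overlapped for none of these genes. Without Normal_nasopha replicate 2 the Atf3 value was 2.40, still called.

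Egr1 had 159, 173 and 113 CPM in Normal_nasopha against 14.7, 24.8 and 12.3 CPM in Normal_lung (2.97 ± 0.32, 0.000996). Jun had 121, 302 and 85.8 CPM in Normal_nasopha against 31.1, 39.8 and 43.2 CPM in Normal_lung (2.02 ± 0.48, 0.0192), and without Normal_nasopha replicate 2 the value was 1.28. Fos had 31.0, 14.9 and 13.3 CPM in Normal_nasopha against 6.01, 6.32 and 5.15 CPM in Normal_lung (1.61 ± 0.38, 0.018). Of the remaining called genes, Junb averaged 299 ± 103 CPM in Normal_nasopha and 107 ± 7.96 CPM in Normal_lung (SD, n = 3 each; 1.32 ± 0.28), and Ier2 averaged 97.1 ± 22.7 CPM in Normal_nasopha and 44.6 ± 2.58 CPM in Normal_lung (0.97 ± 0.22). Without Normal_lung replicate 1 or 3 the number of members called was 3, and without replicate 2 it was 4. Fosb, Fosl1 and Egr1 were called under each of the 11 alternatives run.

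Per kilobase, in the table of normal organoids, Junb had 165 CPM per kb in Normal_nasopha and 59.2 in Normal_lung, and Fosl1 had 73.3 in Normal_nasopha and 2.47 in Normal_lung. Fosl2 made up 15.8% to 40.1% of the FOS-family level in Normal_nasopha and 76.2% to 85.8% in Normal_lung. The ranks and shares of Jund and Fosl1 depend on the table: in the comparator columns Jund had the highest level of the 10 genes (232 CPM per kb), Junb had 178, Fosl1 had 26.9, and Fosl2 made up 30.9% to 55.1% of the FOS-family level. Of the other lists, beside 31.1% of all genes called, 3 of 16 other bZIP factors were higher and 0 lower, 7 of 22 other immediate early genes higher and 3 lower, 1 of 16 upstream genes higher and 1 lower, 4 of 11 ERK feedback genes higher and 3 lower, 9 of 21 AP-1 target genes higher and 3 lower, and 7 of 10 heat shock genes higher and 0 lower. Klf4, an epithelial immediate early factor, had a log2 fold change of 3.38 ± 0.33, the ERK phosphatase Dusp5 4.77 ± 0.36 and the small heat shock gene Hspb1 4.63 ± 0.42.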

How the data were processed

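The authors deposited whole-number counts per gene, from alignment with STAR to mm10 per the submitters' processing notes. Neither the counting tool nor its annotation or strand setting is stated in the sources. The same deposited tables hold the authors' log2 fold changes and adjusted p-values, made with DESeq2 or DESeq per the submitters' processing notes, which are quoted only where named as theirs. Of the count columns, 13 were repeats of others and 0 of them differed. A further 32 columns of per-sample values were not used. Of 27 symbols turned into dates, 26 were restored.

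The test was that of edgeR 4.0.16, run in R 4.3.3 (filterByExpr, TMM, robust quasi-likelihood F-test, Benjamini-Hochberg over all genes tested). The 10 tumour libraries were fitted together, the same libraries with the 3 comparator columns in a second fit, and the 6 normal libraries alone. Standard errors are the log2 fold change divided by the root of F. Levels are CPM of the total count, and genes were compared per kilobase of their longest GENCODE vM21 coding transcript on GRCm38. Alternatives were DESeq2 1.42.0, RLE size factors, no filter, a replicate block, a length and GC correction (mgcv 1.9.3), the compared groups alone and each library left out. From each gene list, up to 3 called genes of smallest adjusted p in each direction and comparison could be named, and for each member the 2 non-member genes of highest correlation whose log2 CPM averaged 3 or more. The members and lists were chosen with earlier results of these data known.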

Additional observations from a re-analysis of the deposited data

How the results depend on the processing

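Of 33 calls of a member in a comparison, 15 held under every alternative run and 0 changed direction. Fos and Fosb held under every alternative in all 4 comparisons with the comparator. For LMP1 against Ctr, 1 member was called, but 2 by DESeq2, 0 without a filter, 0 with a replicate block, 0 with the length and GC correction, and 0 to 2 with 1 library left out. For TMPL against TMP 2 were called, 1 with the length and GC correction and 0 to 3 with 1 library left out. DESeq2 called 2 for Lung-LMP1 against Lung-Ctr, against 0, and the compared groups alone gave 1 for Lung-LMP1 against LMP1, against 0. Against the comparator, LMP1 had 5 calls, 3 with the replicate block and 2 to 5 with 1 library left out, and Lung-Ctr had 6 calls, 3 with the compared groups alone and 3 to 5 with 1 library left out. For Normal_nasopha against Normal_lung, 8 were called and 3 to 8 with 1 library left out. Jund in Lung-LMP1 against LMP1 changed sign with the length and GC correction (log2 fold change 0.035), and the cause was not tested. Fits that leave a group with 1 library assume that it varies like the others.

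Same-numbered tumour libraries correlated at -0.348 to 0.174 in their deviations from the group means, with 2 of 13 pairs over the limit for pairing. Other-numbered tumour libraries correlated at -0.473 to 0.425, with 11 of 24 pairs over it. For normal libraries the values were -0.196 to -0.105 for the same number and -0.093 to 0.174 for other numbers. In groups of 2 libraries the deviations mirror each other, so these values cannot tell whether the numbers pair the samples. With the replicate block, calls over all genes numbered 483 in place of 2210 for LMP1 against Ctr, 360 in place of 1361 for Lung-LMP1 against LMP1, 785 in place of 1663 for TMPL against TMP, 2 in place of 120 for the interaction and 2517 in place of 3980 for LMP1 against the comparator. DESeq2 called 3576, 2537, 3135 and 926 genes in the first 4 of these, 881 in place of 0 for Lung-LMP1 against Lung-Ctr and 40 in place of 0 for Lung-Ctr against Ctr. The length and GC correction gave 949 for LMP1 against Ctr, 684 for TMPL against TMP and 2456 in place of 3861 for Lung-Ctr against the comparator. The compared groups alone gave 168 for that last comparison, 2682 for Lung-LMP1 against LMP1, 2917 in place of 4944 for Ctr against the comparator, 2288 for LMP1 and 2937 in place of 4516 for Lung-LMP1. Without the Lung term, TMPL against TMP called 1045. Counts of 3 in a library set the limit of detection, at 0.138 to 0.2393 CPM.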

Other observations

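The 10 heat shock genes summed to 7083, 17790 and 3757 CPM in comparator replicates 1, 2 and 3, and to 5365, 13810 and 2776 CPM in the same-numbered Normal_nasopha libraries. Replicate 2 of both also had the highest level of Fosl1, Jun, Jund, Atf3 and Egr1. In Normal_lung the heat shock sum was 1561 to 1700 CPM.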
